A study of Mus musculus with 6 samples.

Results

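The genes described here are 7 genes of the DNA repair routes used in antibody class switching in activated B cells. They were taken from a raw exon count table by gene symbol, and Ung, Msh6, Apex1, Apex2, Exo1, Trp53bp1 and Rif1 were found, 7 of the 39017 genes in the table. Their values were compared between induced GC B cells (iGBs) of 3 Control and 3 Prmt1-null mice.

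Class switching begins with cytosines that are deaminated to uracils in the switch regions of the immunoglobulin heavy chain locus. UNG removes the uracil, an apurinic/apyrimidinic endonuclease (APEX1 or APEX2) nicks the abasic site that is left, and in a parallel route the mismatch repair protein MSH6 recognizes the U:G mismatch while the exonuclease EXO1 degrades the strand around it. Nicks on both strands give double-strand breaks, and 53BP1 (encoded by Trp53bp1) together with RIF1 protects the ends from resection before they are joined to another switch region. In GC B cells the same uracils are also the source of somatic hypermutation, in which UNG and MSH6 again take part.

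B cells came from the spleens of C57BL6/J mice that carried Cg1-cre alone (Control) or Cg1-cre with both Prmt1 alleles floxed, Prmt1f/f (Prmt1-null), so that the Cre allele was shared by both groups. The Cre sits in the Ighg1 locus and acts only once a B cell transcribes that locus after activation, and PRMT1 is a protein arginine methyltransferase. The cells were grown with CD40L, BAFF and IL-4 on 40LB feeders, a fibroblast line that makes the first 2 of these factors, and were harvested on day 3.5 after feeder depletion with anti-H2K beads. The labels give IL-4 at 5 ng/ml and the study's methods a lower concentration, and they do not give the age of the mice used for each library. Each library was 1 mouse, with 2 females and 1 male per group (Control 1 and Prmt1-null 3 were male).

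Total counts ran from 45343250 to 62774232 per library. Normalized counts, the unit of the values below unless stated, are counts scaled by TMM to a common library of 55454000 counts. The targeted gene, Prmt1, had 3964, 3924 and 4838 normalized counts in Control libraries and 1745, 1478 and 1477 in Prmt1-null libraries, which left 36.9% of the Control count (log2 fold change −1.44, standard error, SE, 0.095, adjusted p = 1.11e-05, edgeR's quasi-likelihood test). B cell markers (Cd79a, Cd79b, Ms4a1, Pax5, Cd22, Ebf1) were high in each library, with a summed level of 317680 to 332780 in Control libraries and 329480 to 346670 in Prmt1-null libraries, and 0 of the 6 were called (1 was higher by the unadjusted p under 0.05). The germinal centre markers (Bcl6, Fas, Mybl1, S1pr2, Gcsam, Rgs13) summed to 15831 to 17509 in Control libraries and 15034 to 16158 in Prmt1-null libraries, with all 6 genes detected in all 6 libraries. Of these 6, Mybl1, a transcription factor gene, was called lower (log2 fold change −0.50, adjusted p = 0.0456), and Bcl6, the GC master regulator, was lower in each Prmt1-null than in each Control library without being called (−0.19, adjusted p = 0.201). Feeder fibroblast markers summed to 1607 to 1779 in Control libraries and 1690 to 2196 in Prmt1-null libraries, T cell markers to 1310 to 1544 and 1436 to 1607, and macrophage and granulocyte markers to 2172 to 2464 and 2237 to 2578. Of the 8 feeder markers 0 were called, 7 had a log2 fold change above 0, and 2 were higher without overlap between the groups, Col1a1 (0.44, adjusted p = 0.173) and Sparc (0.64, adjusted p = 0.36). Of all tested genes 9.95% were higher and 9.92% lower without overlap, and 6.5% higher and 7% lower by the unadjusted p under 0.05. Of the 6 T cell markers tested 0 were called and 0 had an unadjusted p under 0.05. Of the 6 macrophage and granulocyte markers tested 1 was called, Adgre1, listed as Emr1, which rose from 352.8 ± 52.1 to 585.5 ± 64.6 (log2 fold change 0.73, adjusted p = 0.0319). The plasma cell markers Sdc1, Prdm1, Xbp1, Irf4, Jchain, Tnfrsf17 and Mzb1 summed to 63294 to 68780 in Control libraries and 70743 to 76568 in Prmt1-null libraries, without overlap (two-sided exact permutation test, p = 0.10, the smallest that 3 against 3 can give). Of the 6 of these genes that were tested 5 had a log2 fold change above 0, 2 of them with an unadjusted p under 0.05, and Tnfrsf17 was at 0 to 4 raw counts. Lck gave most of the T cell sum and Cd68 most of the macrophage sum, while Cd4 had at most 26 raw counts and Cd8a at most 30. The part of plasma cell, feeder, macrophage or germinal centre marker content in the results below was not tested.

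Only Msh6 passed the test among the 7 members. It was lower in Prmt1-null libraries, at 78.0% of the Control level. Ung and Apex1 lay higher in each Prmt1-null library than in any Control library, with means 24.4% and 22.7% above the Control means, but missed the threshold. Exo1, Trp53bp1 and Rif1 overlapped between the groups. A gene was called at an adjusted p under 0.05 with a mean normalized count over 100, and in bulk RNA fewer cells of a type and less RNA per cell cannot be told apart. All 7 members passed the filter on low counts. Of them 0 were called higher, against 0.58% of the 18268 genes tested, and 1 was called lower, against 0.602%, with 1.18% of all genes called in either direction. DESeq2's Wald test called 1 member higher, Apex1, and 1 lower, Msh6, where it called 321 of the 18268 genes higher and 399 lower. By the unadjusted p under 0.05, 2 members were higher and 1 lower, 3 in all, where the shares of all tested genes were 6.5%, 7% and 13.5%. The groups did not overlap for 3 members that were higher and 1 that was lower, where all tested genes gave 9.95% and 9.92%, and 19.9% in both directions. The median log2 fold change of the 7 members was 0.06, with 4 above and 3 below 0, against −0.001 for all tested genes. The members did not move in 1 direction.

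**Figure D1:**
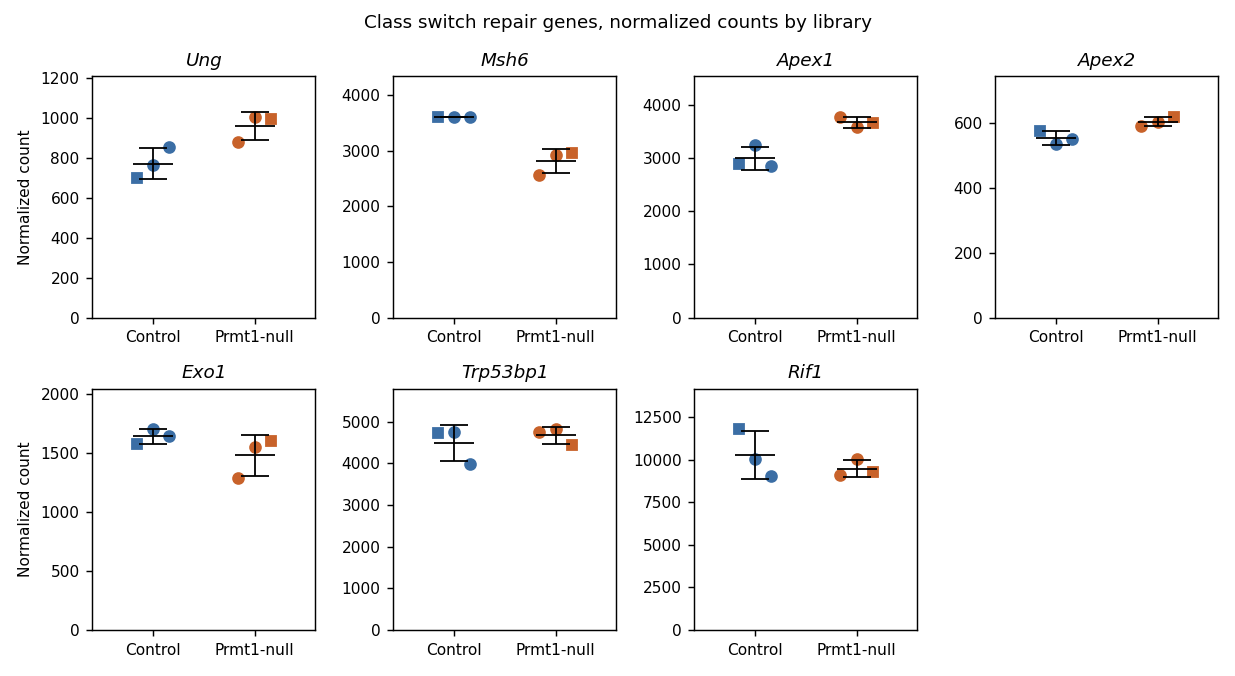
Normalized counts of the 7 members (y axis of each panel, starting at 0) in the 3 Control (blue) and 3 Prmt1-null (orange) libraries, with squares for the male mice and bars for the mean and SD. The 3 Prmt1-null libraries lie above all 3 Control libraries for Ung, Apex1 and Apex2 and below them for Msh6, and the groups overlap for Exo1, Trp53bp1 and Rif1.

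Per kilobase of exon, the genes spanned a wide range of expression. On the scale of CPM (counts scaled to library size) per kilobase of merged exons, Apex1 was the most highly expressed member, with a level of 37.9 ± 2.70 (SD, n = 3) in Control iGBs, and its mean over all 6 libraries was above that of 91.4% of all tested genes. Rif1 (17.6 ± 2.42) and Msh6 (15 ± 0.015) followed, and the lowest Rif1 library in Control, at 15.5, lay just above the highest Msh6 library, at 15. Trp53bp1 had a level of 5.71 ± 0.556, Exo1 3.52 ± 0.133, Ung 2.54 ± 0.257 and Apex2 1.14 ± 0.042. In Prmt1-null iGBs the order of the members was the same, but Exo1 (2.75 to 3.44) and Ung (2.90 to 3.32) overlapped. The place of Ung depends on which transcripts set its length, because with the exons of basic transcripts only, an alternative chosen after seeing the data, Ung had a level of 6.74 ± 0.496 in Prmt1-null libraries and Exo1 3.43 ± 0.398. The order of Exo1 and Ung is therefore not settled, and Apex2 was lowest by both lengths. The level of Apex1 is uncertain too, because 61.7% of its exon bases are shared with a gene on the opposite strand. Whether reads were counted by strand is not given.

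**Figure D2:**
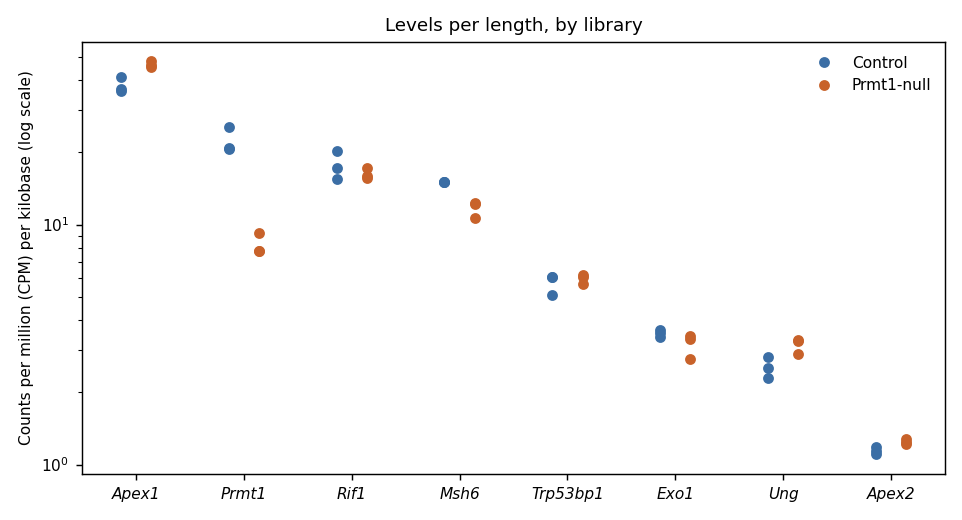
Level of each gene in CPM per kilobase of merged exons (log scale) in the 3 Control (blue) and 3 Prmt1-null (orange) libraries, ordered by the Control mean. Apex1 is highest, near 37.9 in Control, and Apex2 lowest, near 1.14, and Prmt1 is the gene whose groups lie farthest apart.

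Ung (ENSMUSG00000029591, chromosome 5, 114130386 to 114139323, plus strand, in mm10 as for the positions of the other genes), the uracil glycosylase that turns uracils into abasic sites, had 696.2, 765.6 and 851.7 normalized counts in Control iGBs. In Prmt1-null iGBs it had 877.8, 1006 and 993.5. The groups did not overlap, though the highest Control and the lowest Prmt1-null library lay close together. The means were 771.2 ± 77.9 and 959.0 ± 70.6 (SD, n = 3), a log2 fold change of 0.31 (SE 0.115, 95% interval 0.07 to 0.56). Ung did not pass the test (adjusted p = 0.23, edgeR's quasi-likelihood test, Benjamini-Hochberg adjustment, as for all adjusted p below). The adjusted p lay between 0.112 and 0.277 over the 7 alternatives with all libraries, and with 1 library left out the log2 fold change ran from 0.25 to 0.39 (adjusted p from 0.138 to 0.541). In the female mice alone it was 0.22 (adjusted p = 0.558). Ung shared no exon bases with another gene and had 573 to 1091 raw counts. At the mean raw count of each group the counting error was 3.68% in Control and 3.16% in Prmt1-null libraries. Both were well below the spread between mice, 10.1% in Control and 7.36% in Prmt1-null libraries.

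Among the other uracil glycosylases, Mbd4, which removes uracil and thymine opposite guanine at CpG sites, was called lower, with 5848, 5317 and 6025 normalized counts in Control libraries and 4337, 4006 and 4467 in Prmt1-null libraries. Its log2 fold change was −0.42 (SE 0.067, adjusted p = 0.00801). Smug1 and Tdg, glycosylases that can also excise uracil, had log2 fold changes of 0.05 (95% interval −0.33 to 0.44, adjusted p = 0.929) and 0.07 (−0.11 to 0.25, adjusted p = 0.789), and both were chosen here after their values were seen.

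Apex1 (ENSMUSG00000035960) lies on the plus strand of chromosome 14 from 50924968 to 50927139 and encodes the main cellular endonuclease for abasic sites. It had 2888, 3233 and 2845 normalized counts in Control libraries and 3773, 3570 and 3658 in Prmt1-null libraries. All 3 Prmt1-null libraries were above all 3 Control libraries. The means were 2989 ± 213 and 3667 ± 101, a log2 fold change of 0.29 (SE 0.069, 95% interval 0.15 to 0.44). The adjusted p was 0.0569, just over the threshold, and it was 0.00591 with no filter on low counts and 0.00713 with DESeq2's Wald test, in a range of 0.00591 to 0.0875 over 7 alternatives. With a library left out it was 0.0736 to 0.226, and in the female mice alone 0.215 (log2 fold change 0.27). Whether reads were counted by strand is not given in the sources used here, so reads of overlapping genes cannot be assigned with certainty, and 877 of the exon bases of Apex1 (61.7%) are shared with Pip4p1, listed as Tmem55b, on the opposite strand. Tmem55b had a log2 fold change of 0.14 (SE 0.061, adjusted p = 0.322), and its groups did not overlap either.

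The promoters of the members are shown for the one that was called and for Apex1, the member next to the threshold in the other direction. They are RefSeq windows of GRCm38.p6 with 250 bases before the start and 50 from it on, written 5′ to 3′. RefSeq windows were matched for 4 members, Ung, Msh6, Apex1 and Trp53bp1. Capitals mark the E box CACGTG, the word bound by MYC and MAX and by related factors, in Apex1, and the word TTTCCCGC, bound by E2F factors, in Msh6.
Apex1, chr14:50924699-50924998, plus strand: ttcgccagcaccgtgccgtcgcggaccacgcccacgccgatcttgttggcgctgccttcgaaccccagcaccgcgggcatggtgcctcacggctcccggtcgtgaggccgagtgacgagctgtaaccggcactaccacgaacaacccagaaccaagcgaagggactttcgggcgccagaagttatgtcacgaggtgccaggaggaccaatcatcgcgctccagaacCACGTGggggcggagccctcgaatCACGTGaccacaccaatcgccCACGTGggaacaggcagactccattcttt
Msh6, chr17:87974800-87975099, plus strand: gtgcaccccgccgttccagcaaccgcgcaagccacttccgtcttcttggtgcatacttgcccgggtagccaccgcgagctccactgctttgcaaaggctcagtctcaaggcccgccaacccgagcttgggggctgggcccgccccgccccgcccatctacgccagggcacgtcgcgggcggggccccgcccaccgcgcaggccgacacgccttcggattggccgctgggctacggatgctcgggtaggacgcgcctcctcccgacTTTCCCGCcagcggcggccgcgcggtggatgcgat

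The Apex1 window held 3 copies of CACGTG, which begin 24 bases before the start, at the start base and at base 22 from it. This word is its own reverse complement, was found in 7.15% of all 32851 RefSeq promoter windows of this length, and occurred 3 or more times in 29 of them (0.0883%). In the windows of tested genes the shares were 9.55% and 0.13%, and 2 of the 24 windows of replication and E2F target genes held it (8.33%), 0 of them 3 times. The cut of 3 equals the number found in the Apex1 window, so these shares describe that window and do not test it. The Msh6 window held 1 E2F word, at base 16 from the start, in a search for TTTCCCGC, TTTGGCGC, TTTCGCGC and TTTGCCGC on both strands, none of which contains CACGTG. Of all windows 2.27% held one of these E2F words, and of the windows of tested genes 3.68%. Of the 24 windows of the replication and E2F target genes described below, which cover 22 of the 29 genes, 9 did (37.5%), a share that the choice of E2F targets for the list partly sets. The Ung and Trp53bp1 windows held neither kind of word. A match describes the letters and does not show a bound site.

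Apex2 (ENSMUSG00000025269, chromosome X, 150519519 to 150589868, minus strand), the second abasic endonuclease, had 575.9, 535.6 and 550.9 normalized counts in Control libraries and 592.3, 602.9 and 620.1 in Prmt1-null libraries. The groups did not overlap, but the gap between them was small. The log2 fold change was 0.13 (SE 0.114, 95% interval −0.12 to 0.37, adjusted p = 0.685). The ratio of Apex1 to Apex2 normalized counts was 5.40 ± 0.552 in Control libraries and 6.06 ± 0.265 in Prmt1-null libraries and overlapped (exact permutation test, p = 0.3), so a shift between the 2 endonucleases was not resolved. Apex2 shares 311 exon bases with Alas2 and 123 with Pfkfb1, both on the opposite strand and both low, at up to 75.3 and 195.8 normalized counts.

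The other base excision repair genes that were called were lower in Prmt1-null iGBs. Of 19 tested genes for uracil removal and base excision repair beside the members, 0 were called higher and 3 lower, 5 were lower and 0 higher by the unadjusted p under 0.05, and the median was −0.08, with 6 fold changes above and 13 below 0. Besides Mbd4 these were Neil3 and Xrcc1. Neil3, a glycosylase for oxidized bases, had 1568 ± 54.8 normalized counts in Control and fell to 949.2 ± 109 (log2 fold change −0.72, SE 0.105, adjusted p = 0.00504). Xrcc1, the scaffold for ligation of single-strand breaks, fell from 2960 ± 167 to 2281 ± 73.9 (log2 fold change −0.38, SE 0.071, adjusted p = 0.0241). All 3 genes were lower in each Prmt1-null than in each Control library, as were 9.92% of all tested genes. Of all tested genes 0.602% were called lower and 7% were lower by the unadjusted p under 0.05. Without Prmt1-null 1 or Prmt1-null 2, 0 genes of the list were called. Xrcc1 also lost its call without Control 2 or Prmt1-null 3 and in the female mice alone (adjusted p = 0.0855), where 2 genes of the list were called.

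Msh6 (ENSMUSG00000005370, chromosome 17, 87975062 to 87990892, plus strand), which encodes a subunit of the complex that recognizes the U:G mismatch, had 3607, 3615 and 3612 normalized counts in Control iGBs. In Prmt1-null iGBs it had 2561, 2929 and 2963. The 3 Control libraries were nearly equal and all 3 Prmt1-null libraries were lower. The means were 3611 ± 3.69 and 2817 ± 223, a log2 fold change of −0.36 (SE 0.070, 95% interval −0.51 to −0.21, adjusted p = 0.0283), which placed it 114th by p among the tested genes. The Control libraries varied by 0.102% of their mean, less than the 1.70% that counting error alone gives, while the Prmt1-null libraries varied by 7.91%. Only 34 exon bases (0.782%) are shared with another gene, Fbxo11, on the opposite strand.

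The direction of Msh6 held in each fit, with a log2 fold change of −0.40 to −0.29 when 1 library was left out. The call held in the 7 alternatives with all 6 libraries (adjusted p from 0.000518 to 0.0414). It was lost without Control 1 (adjusted p = 0.0599), Control 2 (0.118), Prmt1-null 1 (0.147), Prmt1-null 2 (0.107) or Prmt1-null 3 (0.0695) and was kept without Control 3 (0.0302). In the 4 female mice alone, a comparison added after seeing the data, the log2 fold change was −0.39 (adjusted p = 0.0764).

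Exo1 (ENSMUSG00000039748, chromosome 1, 175880581 to 175913489, plus strand), the exonuclease of this route, had 1581, 1705 and 1644 normalized counts in Control libraries and 1285, 1553 and 1606 in Prmt1-null libraries. Prmt1-null 1 was the lowest library, and Prmt1-null 3 lay within the Control range. The log2 fold change was −0.15 (SE 0.0998, 95% interval −0.36 to 0.06, adjusted p = 0.561), with −0.05 without Prmt1-null 1, −0.21 without Prmt1-null 3 and −0.24 in the female mice alone. The interval leaves room for a fall of the size seen for Msh6.

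Of 14 other mismatch repair genes, including the clamp and polymerase factors that fill the gap, 0 were called higher and 1 lower. Over all tested genes 0.58% were called higher and 0.602% lower. By the unadjusted p under 0.05, 0 of the 14 were higher and 3 lower, against 6.5% and 7% of all tested genes. Of the 14 fold changes 12 lay below 0 and 2 above, with a median of −0.13. The called gene was Rfc2, a subunit of the clamp loader, which fell from 4274 ± 54.1 to 3471 ± 110 normalized counts (log2 fold change −0.30, SE 0.059, adjusted p = 0.0282) and shares part of its exons with another gene on the opposite strand. With 1 library left out it kept its call only without Control 3 (adjusted p = 0.0248), with adjusted p up to 0.186 otherwise. Rfc1, the large subunit of the same loader, had a log2 fold change of −0.26 (adjusted p = 0.269). Pcna, the sliding clamp, had one of −0.15 (adjusted p = 0.324).

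**Figure D3:**
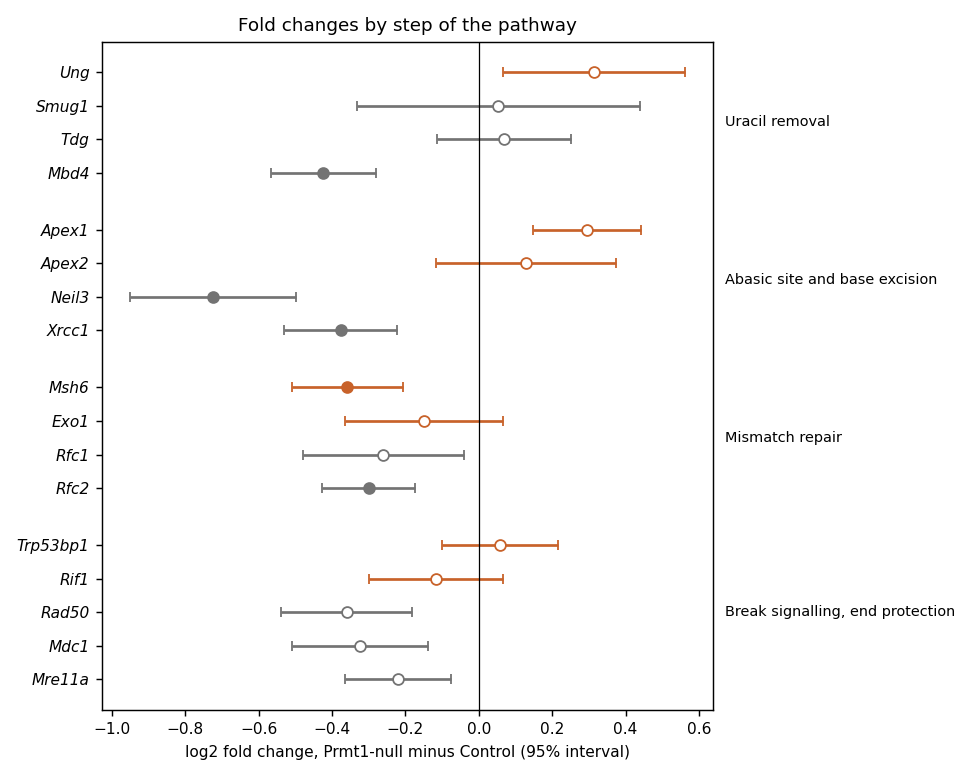
Log2 fold change, Prmt1-null minus Control (x axis, bars for the 95% interval), of the members (orange) and other genes named in the text (grey), grouped by step of the pathway, with filled points for called genes. Msh6 at −0.36 is the only filled member, Ung and Apex1 lie to the right of 0 with intervals that do not reach it, and the called genes Mbd4, Neil3, Xrcc1 and Rfc2 lie to the left.

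Trp53bp1 (ENSMUSG00000043909, chromosome 2, 121193281 to 121271407, minus strand), which encodes 53BP1, had 4731, 4742 and 3980 normalized counts in Control libraries and 4758, 4821 and 4433 in Prmt1-null libraries. Control 3 was the lowest library and Prmt1-null 3 the next lowest, and the other 4 lay between 4731 and 4821. The log2 fold change was 0.06 (SE 0.074, 95% interval −0.10 to 0.22, adjusted p = 0.792). Its sign rested on Control 3, without which it was −0.02. It was 0.10 without Control 1 or Control 2, 0.09 without Prmt1-null 3, 0.04 without Prmt1-null 2 and 0.14 in the female mice alone. It shares 2130 exon bases (15.0%) with Tubgcp4 on the opposite strand, which had a log2 fold change of −0.02 (adjusted p = 0.935).

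Rif1 (ENSMUSG00000036202, chromosome 2, 52072832 to 52122383, plus strand), the effector that 53BP1 recruits to breaks, had 11799, 10027 and 9011 normalized counts in Control libraries and 9112, 10053 and 9260 in Prmt1-null libraries. The Control libraries spanned the whole range of the Prmt1-null libraries. The log2 fold change was −0.12 (SE 0.085, 95% interval −0.30 to 0.07, adjusted p = 0.603). Control 1, a male mouse, was the highest library. Without it the log2 fold change was −0.0036, and in the female mice alone it was 0.01. Without Control 3, the lowest library, it was −0.20 (adjusted p = 0.203). The spread between Control mice, 13.7% of the mean, was the widest of the members, against a counting error of 1.01%.

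As a ratio of Prmt1-null to Control, the 95% interval was 0.933 to 1.16 for Trp53bp1 and 0.812 to 1.05 for Rif1. The sum of the 7 members was 22493 to 25878 normalized counts in Control libraries and 22958 to 24535 in Prmt1-null libraries and overlapped.

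Of 16 other genes of break signalling and end protection, 0 were called by edgeR as set above, while 3 had an unadjusted p under 0.05, all of them lower. With no filter on low counts or with DESeq2's Wald test 2 were called, and 1 with limma-voom, with sex as a covariate or without Control 3. The median log2 fold change was −0.07. The 3 genes with an unadjusted p under 0.05 were Rad50 (−0.36, adjusted p = 0.0529), a subunit of the MRN complex that senses breaks, Mdc1 (−0.32, adjusted p = 0.0921), which spreads the H2AX signal, and Mre11a (−0.22, adjusted p = 0.14), the MRN nuclease. Each of the 3 was lower in every Prmt1-null than in every Control library, as were 9.92% of all tested genes. Of all tested genes 7% were lower by the unadjusted p under 0.05. Of 11 end joining genes 0 were called in any alternative with all libraries, 0 had an unadjusted p under 0.05, and the median was 0.06. Prkdc, the catalytic subunit of DNA-PK, had the smallest p of that list, with a log2 fold change of −0.13 (adjusted p = 0.503). Nhej1, which encodes XLF, had few counts, 41.3, 25.5 and 40.8 in Control libraries and 70.9, 61.8 and 34.98 in Prmt1-null libraries (log2 fold change 0.64, 95% interval −0.28 to 1.57, adjusted p = 0.563). Lig4, the ligase of end joining, had a log2 fold change of 0.17 (adjusted p = 0.654).

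Many repair genes are also expressed with DNA replication, and replication and E2F target genes were listed for that reason. Of 29 such genes 0 were called higher and 2 lower, against 0.58% and 0.602% of all tested genes. By the unadjusted p under 0.05, 1 was higher and 7 lower, against 6.5% and 7% of all tested genes. The list had 23 fold changes below 0 and 6 above and a median of −0.10. Rrm2, a ribonucleotide reductase subunit, fell from 7590 ± 156 to 6159 ± 393 (log2 fold change −0.30, adjusted p = 0.033). Ccne2, which encodes cyclin E2 and shares exon bases with a gene on the opposite strand, fell from 3499 ± 407 to 2599 ± 190 (log2 fold change −0.43, adjusted p = 0.0332). Pole, the catalytic subunit of DNA polymerase epsilon, had a log2 fold change of −0.26 and missed the threshold (adjusted p = 0.0569). The median of this list and that of the mismatch repair list were both below 0, and the part of replication in the value of Msh6 was not tested. Both calls were lost in the female mice alone and in each fit with 1 library left out except that without Control 3.

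**Figure D4:**
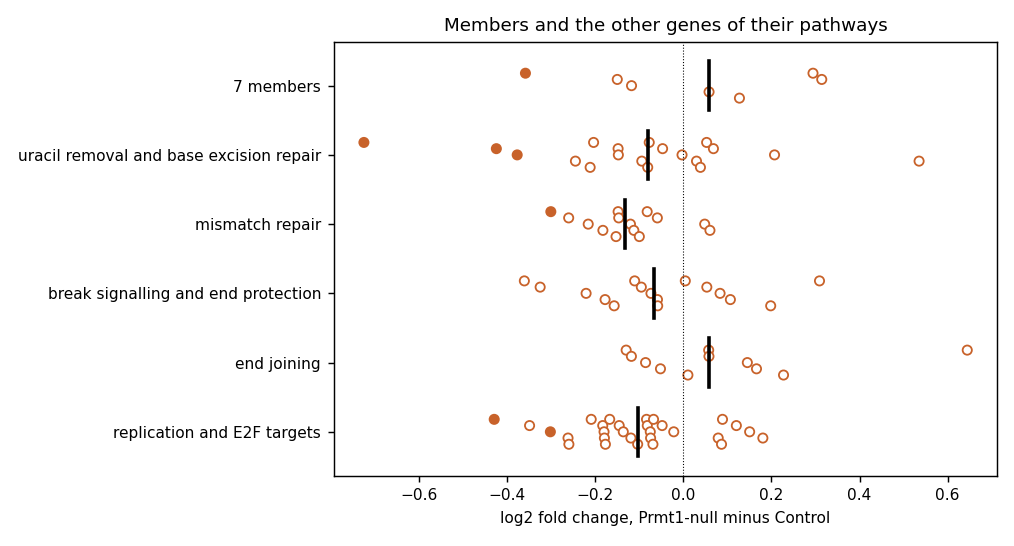
Log2 fold change, Prmt1-null minus Control (x axis), of each tested gene of the members and of 5 lists of related genes (rows), with filled points for called genes and a black bar for the median. The medians of the mismatch repair (−0.13), replication (−0.10) and base excision (−0.08) lists lie below 0, those of the members and the end joining genes (both 0.06) above it, and 1 of the 7 members is filled.

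**Figure D5:**
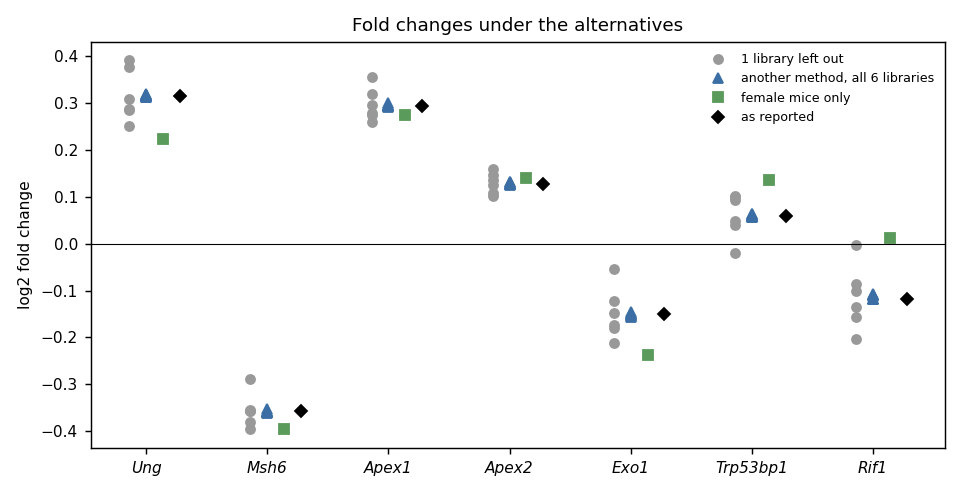
Log2 fold change (y axis) of each member as reported (black), with another method on all 6 libraries (blue), with 1 library left out (grey) and in female mice only (green). Msh6 stays below 0 at −0.40 to −0.29 and Ung, Apex1 and Apex2 above it, while Trp53bp1 and Rif1 cross 0 in at least 1 fit.

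For each member the gene with the most similar pattern over the 6 libraries was found by the root mean square difference of centred log2 normalized counts among 13091 genes with a mean over 100. These were Gsg2 for Msh6 (difference 0.031), Snrnp25 for Apex1 (0.037), D17H6S53E for Ung (0.037), Tubg1 for Exo1 (0.031), Ccar1 for Trp53bp1 (0.022), Pcm1 for Rif1 (0.026) and Txndc16 for Apex2 (0.013). Within 0.05 there were 6 to 48 genes for the other members and 260 for Apex2, so with 6 libraries a likeness to Apex2 picks out little. No member was the nearest gene of another member.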

How the data were processed

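RNA-seq was analysed for iGBs of 3 Control and 3 Prmt1-null mice. Per the submitters' processing notes the authors used Trimmomatic 0.32, STAR 2.3.0e on mm10 and featureCounts 1.4.4 on exons, and deposited raw read counts for each gene, neither normalized nor filtered. Groups were taken from the labels.

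Counts were analysed in R 4.3.3 with edgeR 4.0.16. The 398 chromosome Y genes were left out, genes were filtered with filterByExpr (minimum count 10), and 18268 genes were tested by TMM and the quasi-likelihood test with Benjamini-Hochberg adjustment over all of them. A single value per library was tested by exact permutation, two-sided, over 20 arrangements. Alternatives included DESeq2 1.42.0, limma-voom (limma 3.58.1) and leaving out each library. Methods were first run on simulated counts, whose set changes were larger than those of the members. The simulation therefore does not show how well changes of the members' size are recovered. Gene positions are from GENCODE M21. Counting errors cover counting only, since the reads carry no molecular identifiers. The intervals given with fold changes and ratios were set from the standard errors of the edgeR fit, not from counting alone.

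The members and lists were chosen with earlier results of these data known. Besides the members and Prmt1, called genes of each list were named, and up to 3 with the smallest p where fewer were called, with the nearest gene in pattern to each member. Other genes were named after their values were seen. Some genes of the lists are not reported here, and the lists were counted without them.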

Additional observations from a re-analysis of the deposited data

How the results depend on the processing

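Over the 7 alternatives with all 6 libraries, each member kept its direction. Apex1 passed the threshold with no filter on low counts (0.30, adjusted p = 0.00591) and DESeq2 (0.29, adjusted p = 0.00713), where 1 member was called higher. Without Control 3 the log2 fold change of Trp53bp1 was −0.019. In female mice only, added after seeing the data, that of Rif1 was 0.011 and that of Msh6 −0.39 (adjusted p = 0.0764), 0 members were called lower, and 113 genes were called, 63 higher and 50 lower. In all tested genes 216 calls became 675 with no filter (319 higher, 356 lower) and 720 with DESeq2 (321 higher, 399 lower). Break signalling had 2 calls with no filter or DESeq2 and 1 with limma-voom or sex as a covariate. Replication had 4 with no filter or DESeq2 and 0 in females, and mismatch repair 0 in females.

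With 1 library left out, all calls ran from 31 to 340 (21 to 170 higher, 10 to 170 lower), members called lower from 0 to 1, and log2 fold changes from −0.40 to −0.29 for Msh6, −0.21 to −0.053 for Exo1, −0.019 to 0.10 for Trp53bp1 and −0.20 to −0.0036 for Rif1. List calls ran from 0 to 3 (base excision), 0 to 2 (mismatch), 0 to 1 (break signalling) and 0 to 4 (replication). Medians ran from −0.11 to −0.048 (base excision), −0.16 to −0.11 (mismatch), −0.10 to −0.0074 (break signalling), 0.017 to 0.074 (end joining) and −0.13 to −0.079 (replication). Fits with a library left out have fewer samples, and any other cause was not tested.

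Same-numbered libraries come from different mice, and their deviations correlated at −0.20, 0.14 and −0.24, so the numbers were not taken as pairs. The largest correlation of a Control with a Prmt1-null library, 0.36, was that of Control 1 with Prmt1-null 3, both male. With the replicate block 151 genes were called, 70 of them lower, 136 shared with the fit without it. Msh6 stayed called, and 0 other mismatch repair genes were, as Rfc2 had an adjusted p of 0.0547. With 3 mice a group, the standard errors of the members' log2 fold changes, 0.069 to 0.115, limit what can be resolved.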
